A study of Mus musculus with 6 samples.

Results

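Replication-dependent histone genes were examined in open-chromatin maps of 2 embryonic mouse tissues. The members were all protein-coding genes of the RefSeq annotation (GRCm38.p6, the mm10 assembly) whose symbol marks them as a histone H1, H2A, H2B, H3 or H4 gene of this nomenclature, or whose older name begins with Hist1h, Hist2h, Hist3h or Hist4h. This gave 71 of 21589 protein-coding genes on the autosomes and X, of which 10 code for H1, 18 for H2A, 18 for H2B, 12 for H3 and 13 for H4. Peaks with a summit within 5 kb of such a gene numbered 64 of 44018 in one tissue and 79 of 49267 in the other. The rule uses names and positions only.

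Accessibility was measured by ATAC-seq, in which the Tn5 transposase inserts sequencing adapters where DNA is not shielded by nucleosomes. One tissue was the posterior second heart field (pSHF), the mesoderm behind the heart from which cells join its inflow end, and the other was the atria, labelled HT. Both came from wild-type CD1 mouse embryos at E10.0, an outbred strain, with microdissected tissue pooled across embryos, and neither group carried an added allele or agent. Each tissue had 3 samples but 1 peak list, so every value below belongs to a tissue's list, no spread between samples could be given, and no test between tissues was made.

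Replication-dependent histone genes are short and mostly lack introns, and they are transcribed in S phase to package newly made DNA. Many lie as divergent H2A and H2B pairs that share one promoter region. The coactivator NPAT gathers at the clusters in a nuclear body, the histone locus body, and the messages end in a stem-loop bound by SLBP in place of a poly(A) tail. Histone genes used outside S phase, in testis or in oocytes, belong to the same families and serve here as members with other known roles.

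Of the 71 genes, 64 lay in 3 clusters. The first cluster of chromosome 13 (chr13:21715711-22043658, 328 kb) held 23 genes. The second cluster of chromosome 13 (chr13:23531044-23934913, 404 kb) held 31, among them the somatic H1 genes H1f1 to H1f4. A cluster of 50.3 kb on chromosome 3 (chr3:96219885-96270192) held 10. The other 7 were H2bu2 and H2aw on chromosome 11, H1f0 and H1f7 on chromosome 15, and H1f8, H1f10 and H4f16 on chromosome 6. The median gene length was 496 bp, so a single peak can cover a promoter and much of the gene.

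Promoter letters were taken from RefSeq for GRCm38.p6, as the 250 bases before and 50 after each start, for 66 of the 71 genes. H3c7, H2bc4, H2bc21, H3c1 and H4c14 had no entry. The promoters on which the comparisons turn are the H2A and H2B pair with the strongest pSHF peak (chr13:22035644-22035820, plus strand, all 177 bases between both starts), the H3 promoter with the strongest HT peak (H3c6, chr13:23562386-23562535, minus strand), the strongest H4 promoter (H4c3, chr13:23698459-23698608, minus strand), an H1 promoter (H1f4, chr13:23622559-23622708, minus strand), an H4 promoter with a near-identical copy (H4c18, chr13:21832198-21832347, minus strand), and an H3 promoter with a peak in the HT list only (H3c4, chr13:23575613-23575762, plus strand). The last 5 are the 150 bases before the start, all are written 5′ to 3′ along the gene (the pair along H2bc12), and capitals mark matches on either strand to 5 textbook motifs of histone promoters.
H2ac12-H2bc12: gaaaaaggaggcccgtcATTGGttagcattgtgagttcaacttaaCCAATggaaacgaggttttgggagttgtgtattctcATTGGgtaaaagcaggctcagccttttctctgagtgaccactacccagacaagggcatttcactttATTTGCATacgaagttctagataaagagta
H3c6: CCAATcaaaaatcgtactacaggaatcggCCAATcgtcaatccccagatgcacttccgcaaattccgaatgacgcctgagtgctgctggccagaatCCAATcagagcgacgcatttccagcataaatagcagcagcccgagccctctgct
H4c3: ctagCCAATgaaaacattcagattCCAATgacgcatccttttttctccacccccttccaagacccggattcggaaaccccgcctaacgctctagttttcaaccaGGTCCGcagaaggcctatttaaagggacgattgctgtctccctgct
H1f4: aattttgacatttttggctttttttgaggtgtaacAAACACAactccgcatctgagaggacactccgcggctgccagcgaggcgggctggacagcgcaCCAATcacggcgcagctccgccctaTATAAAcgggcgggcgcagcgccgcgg
H4c18: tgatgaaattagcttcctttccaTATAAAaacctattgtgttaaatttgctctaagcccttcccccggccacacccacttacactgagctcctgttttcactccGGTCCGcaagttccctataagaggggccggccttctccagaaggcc
H3c4: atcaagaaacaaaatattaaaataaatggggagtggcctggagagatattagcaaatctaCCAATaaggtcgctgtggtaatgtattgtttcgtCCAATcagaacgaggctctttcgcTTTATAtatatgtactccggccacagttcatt

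The 5 motifs are the NF-Y box CCAAT, the TATA box, the octamer ATTTGCAT of H2B promoters, the AAACACA box of H1 promoters and the GGTCCG core of the H4 element bound by HINFP. CCAAT stood in 54 of 66 member promoters (81.8%) against 37.4% of all 32851 promoters in the table. It was present in all 18 H2A, all 16 H2B, all 10 H3 and all 6 clustered H1 promoters, but in only 3 of 12 H4 promoters. TATAAA stood in 35 of 66 (53.0%, against 13.6% of all promoters), counted anywhere in the window. Its place varied, with the first base at −30 from the start at H2ac21, −127 at H4c18 and 15 at H2ac12. A match is thus not always a TATA box by position. The octamer was found in 14 of 66 (21.2%, against 1.74%), in 7 H2A and 7 H2B promoters and in no H1, H3 or H4 promoter. AAACACA was in 5 of 6 clustered H1 promoters and in 4 promoters of H2A and H2B type (9 of 66, 13.6%, against 7.18% of all promoters). GGTCCG was in 11 of 12 H4 promoters (14 of 66 members, 21.2%, against 8.25%), and where it lay on the gene strand of an H4 gene its first base was 46 bases before the start in the median. Matches to different motifs overlapped at 1 place among the member promoters. Windows of divergent partners overlap, so a site between them can count for both promoters, as the octamer of H2ac12 and H2bc12 does. Near-identical copies also repeat sites. The counts are thus of promoters and not of separate sites. Each match is a run of letters and no measure of binding.

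Nearly every histone gene had an open site close by in both tissues. A peak summit lay within 5 kb of the gene in both lists for 64 of 71 genes (90.1%, 95% Clopper-Pearson interval 80.7 to 95.9), against a percent called of 70.7 over all protein-coding genes. In the HT list only it was 4 genes (5.63%, background 3.47), in the pSHF list only it was 0 (background 2.33, and 0 of 71 allows a share of up to 5.06%, Clopper-Pearson), and 3 genes had no peak in either list (4.23%, background 23.5). Within 1 kb the counts were 55 genes in both lists (77.5%, background 67), 6 in HT only (8.45%, background 3.33), 0 in pSHF only (background 2.24) and 10 in neither (14.1%, background 27.4). Over the promoter window itself a peak stood in both lists for 48 of 66 genes (72.7%, background 55.6), in HT only for 4 (6.06%, background 2.89), in pSHF only for 0 (background 2.28) and in neither for 14 (21.2%, background 39.2). Open histone genes were thus more frequent than open coding genes at each distance. None was open in pSHF alone, a state that was also rare among all coding genes (2.33 percent at 5 kb). All intervals here cover counting error over genes, peaks or reads, not the spread between embryos. Clustered histone genes often share a peak or lie within 5 kb of a neighbour's peak. The genes are therefore not independent, the intervals over genes are too narrow, and clustering can raise the shares at 5 kb. The genes with a peak near in the HT list only were H2bc23, H2ac23 and H4c17 in the first cluster of chromosome 13, which owe this to 1 common HT peak (fold enrichment 6.58), and H3c15 on chromosome 3. All 4 have promoters whose letters recur in other histone promoters, over 74.1 to 100% of 50-base windows. The 3 genes with none were H2bc1 and H2ac1, which code for the testis forms TH2B and TH2A, and H1f7, a linker histone of spermatids.

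Other short coding genes had a peak nearby less often than short histone genes. The 2 sets were not matched for anything but length, and the part of gene size was not tested. Among other coding genes with a body of at most 2 kb, 17.8% of 2361 had a pSHF peak within 5 kb and 19.1% an HT peak, against 57 and 60 of 63 histone genes of that size (90.5% and 95.2%). Genes lying between the histone genes were mixed. Of 9 such neighbours, Zfp184, Pom121l2, Prss16 and Hfe had peaks within 1 kb in both lists. Slc17a1 had one in the pSHF list only and Slc17a4 in the HT list only. Trim38, Slc17a2 and Slc17a3 had none, and they lie between the body of the second cluster and the testis pair H2bc1 and H2ac1 at its far end.

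**Figure D1:**
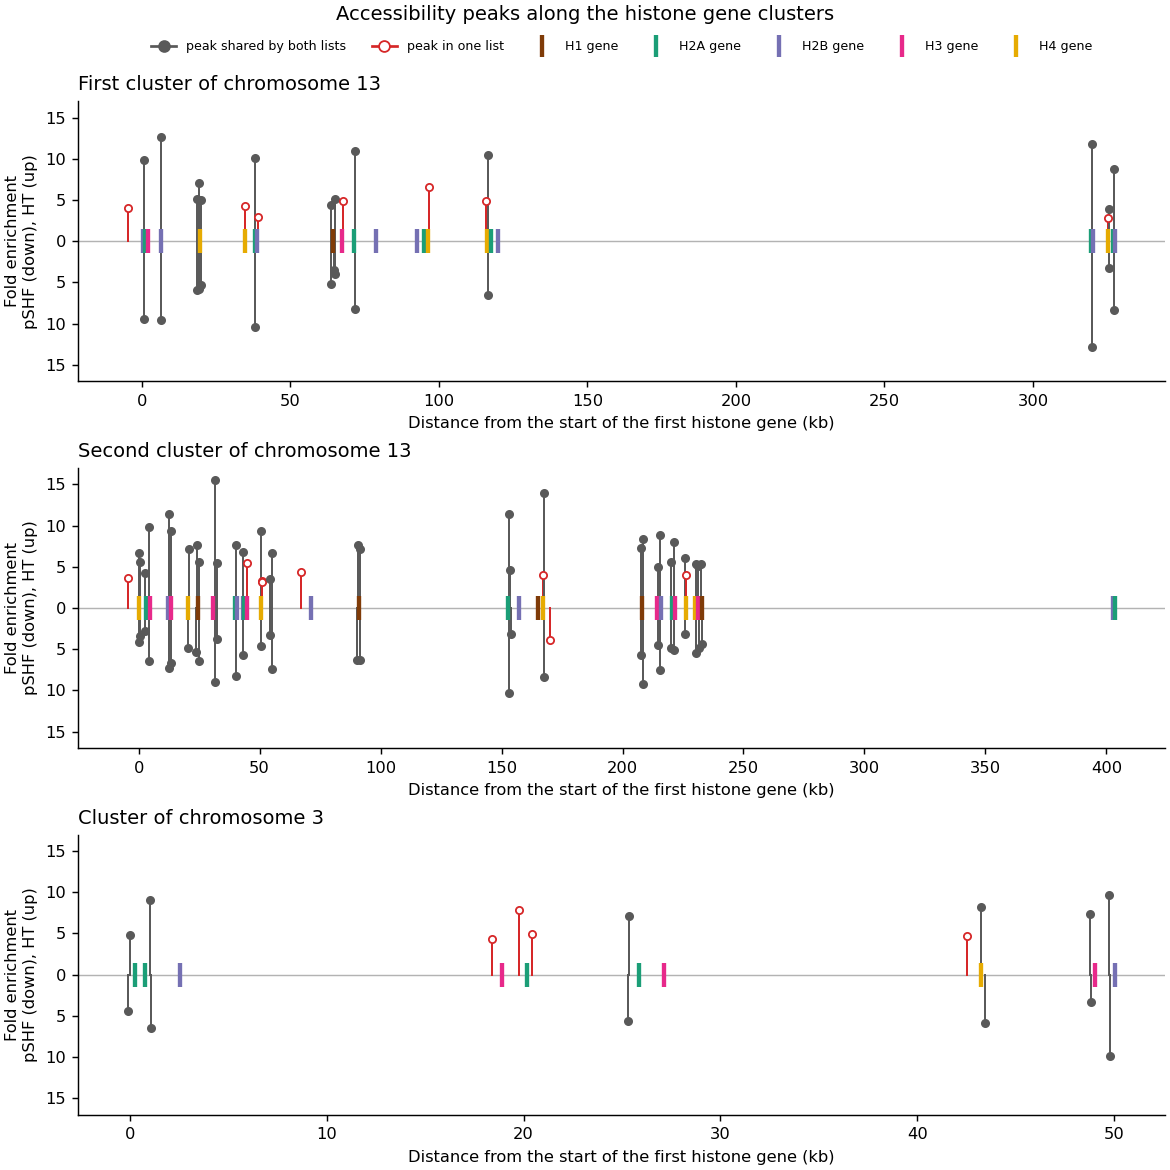
Peaks along the 3 clusters by distance from the first histone gene (kb). Stems give the fold enrichment of each peak at its summit, upward for HT and downward for pSHF, grey where the peak is shared and red where it stands in one list. Ticks on the line are genes coloured by histone type. All 14 pSHF peaks of the first cluster were shared, and the HT list added 7, 7 and 4 peaks of its own in the 3 clusters.

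Almost all histone peaks of the pSHF were shared with the atria, while the atrial list held further ones. Peaks of the 2 lists with 1 bp or more in common are called shared. All others are called restricted, which says only that nothing passed the threshold of the other list there. In the pSHF list 62 of 64 histone peaks were shared (96.9%, interval 89.2 to 99.6), and 2 were restricted (3.12%, against 34.4 over all pSHF peaks). In the HT list 60 of 79 were shared and 19 restricted (24.1%, interval 15.1 to 35.0, against 45.5 over all HT peaks). Restricted peaks were also less frequent at promoters of other coding genes than in the whole lists. Over their promoter windows 4.59 percent of pSHF peaks and 5.6 percent of HT peaks were restricted, beside 0 of 42 pSHF peaks (up to 8.41%, Clopper-Pearson) and 4 of 46 HT peaks (8.70%, interval 2.42 to 20.8) over histone promoters. The remaining 15 restricted HT peaks were among 33 that covered no histone promoter window.

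Peaks near histone genes were little stronger than the lists as a whole, but the coverage around them was high. Fold enrichment, the authors' ratio of coverage at the summit to the local background, had a median of 5.70 over the 64 pSHF histone peaks and 4.85 over the whole list. In HT it was 6.06 over the 79 histone peaks and 5.49 over the list. The summit pileup, the number of overlapping reads recovered from the deposited values, had a median of 21 at pSHF histone peaks against 11 in the list, and of 29 against 12 in HT. The local background differed most. Its median was 3.13 reads per position at pSHF histone peaks against 1.49 in the list, and 3.81 against 1.29 in HT. It was at least 2 times the genome-wide level at 95.3% of pSHF histone peaks (41.5% of all) and at 91.1% of HT histone peaks (38.1% of all). Set beside promoter peaks of other coding genes, histone promoter peaks had lower fold enrichment (median 6.07 against 7.41 in pSHF, 7.30 against 9.50 in HT) with a similar pileup (23.5 against 24 in pSHF, 36.5 against 33 in HT).

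Divergent H2A and H2B pairs had the strongest promoter peaks as a class. Among genes with a promoter entry, starts of opposite direction lay 164 to 281 bp apart in 10 pairs. H2bc4 and H2bc21 had no entry, so whether they pair with their neighbours H2ac6 and H2ac20 could not be judged. Of the 10 pairs, 7 had a peak over the shared promoter in both lists, each with its summit between the starts. Over these 7 the median fold enrichment was 8.40 in pSHF (range 5.70 to 12.9) and 9.89 in HT (6.83 to 11.8). The H2ac12 and H2bc12 pair, whose promoter is printed above, had 12.9 in pSHF and 11.8 in HT, with pileups of 54 (Poisson interval 40.6 to 70.5) and 59 (44.9 to 76.1). It was the strongest histone peak of the pSHF list, above 99.6% of all peaks in that list and above 91.4% in HT. The next pairs in pSHF were H2ac15 and H2bc15 with 10.4 in pSHF and 10.0 in HT, and H2bc13 and H2ac13 with 9.40 and 9.89. The H2ac11 and H2bc11 pair had 8.40 and 8.74, H2ac8 and H2bc8 had 8.32 and 7.68, and H2ac22 and H2bc22 had 8.17 and 11.0. These 3 lay close together in pSHF and further apart in HT. The weakest was H2bc7 and H2ac7 with 5.70 in pSHF and 6.83 in HT. Pairs without a promoter peak were the testis pair H2bc1 and H2ac1, and 2 pairs that copy each other, H2bc23 with H2ac23 and H2ac24 with H4bc24, a gene that its older name Hist1h2br places among the H2B genes.

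The other H2B promoters came next. H2bc14 had a fold enrichment of 9.56 in pSHF and 12.7 in HT, and H2bc18 on chromosome 3 had 9.87 and 9.67. H2bc9 had 7.32 in pSHF and 11.4 in HT, and H2bc3 had 7.49 and 8.87. All of these code for core H2B proteins of S phase. H2bc6, whose annotated span of 37455 bp includes 2 promoter windows, had a peak over each, with 7.41 in pSHF and 6.72 in HT at one and 6.32 and 7.61 at the other. H2bu2 on chromosome 11 was one of few members with more signal in pSHF, at 6.98 against 5.46 and a pileup of 18 against 10.

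Single H2A promoters covered a wide range. The promoter of H2ac6 had one of the strongest peaks (chr13:23683804-23684299, nearest gene H2bc4), with 10.3 in pSHF and 11.4 in HT. H2aw, an H2A gene on chromosome 11 next to Trim17, had 8.88 and 12.2. At the other end H2ac10 had 2.76 in pSHF, above only 0.27% of that list, and 4.26 in HT. On chromosome 3, H2ac20 had 6.49 and 9.09 and its neighbour H2ac21 had 4.44 and 4.85. All 7 single H2A promoters with peaks in both lists had the higher fold enrichment in HT, beside 85.2 percent of promoter pairs of other coding genes. Single here means without a listed H2B promoter under the same peak. H2ac6 and H2ac20 are counted as single only because H2bc4 and H2bc21 had no promoter entry.

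H3 promoters held the strongest atrial peak and also several gaps. H3c6 had 9.04 in pSHF and 15.5 in HT, the highest of all HT histone peaks, with pileups of 28 (18.6 to 40.5) and 48 (35.4 to 63.6). H3c8 had 6.47 and 9.85, H3c2 had 5.06 and 8.05, and H3c3 had 4.45 and 4.97. H3c13 on chromosome 3 had 3.34 and 7.37. Its pileups were 13 (6.92 to 22.2) in pSHF and 35 (24.4 to 48.7) in HT. H3c4 and H3c11 had a promoter peak in the HT list only, and H3c10, H3c14 and H3c15 in neither. H3c10 was the one gene of the S-phase type with no promoter peak in either list whose promoter letters had no copy elsewhere among the members, though a peak of its neighbours lay within 5 kb in both lists.

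H4 promoters had lower fold enrichment than the divergent pairs in both lists. Their median fold enrichment was 4.86 over 10 promoter peaks in pSHF and 7.06 over 11 in HT. H4c3 stood out with 8.36 in pSHF and 13.9 in HT, with pileups of 27 (17.8 to 39.3) and 48 (35.4 to 63.6). H4c4 had 4.63 and 9.35, with pileups of 18 (10.7 to 28.4) and 44 (32.0 to 59.1). H4c2 had 3.12 and 6.06, H4c8 had 4.09 and 6.62, and H4c6 had 4.81 and 7.11. H4c9 was low in both, at 3.27 and 3.90. H4c11 had 5.85 and 7.06, and H4f16 on chromosome 6 had 4.91 and 7.71. Only H4c1 reversed the order, with 5.49 in pSHF and 5.33 in HT. Among promoter pairs of other coding genes 85.2 percent were higher in HT.

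The linker histone genes H1f2, H1f3 and H1f5 had a peak behind the gene as well as at the promoter in both lists. So did 2 H4 genes. The peak behind H4c8 had 3.35 in pSHF and 5.57 in HT, and that behind H4c11 had 5.26 and 5.03. H1f2 had 5.69 in pSHF and 7.22 in HT at its promoter, and 9.27 and 8.39 at a second peak after its end. H1f3 had 5.33 and 7.67 at the promoter and 6.38 and 5.61 after the end, and H1f5 had 3.94 and 5.12 at the promoter and 5.14 and 4.41 after the end. In these 3 genes the downstream peak exceeded the promoter peak in pSHF. In HT it did so for H1f2 alone of the 3. H1f4 had 6.29 and 7.15 at its promoter and H1f1 had 4.35 and 5.29. Peaks after the gene end made up 4 of 15 pSHF peaks and 5 of 14 HT peaks nearest an H1 gene, 1 of 12 and 2 of 12 nearest an H2A gene, and 2 of 16 and 7 of 25 nearest an H4 gene. One of the 5 HT peaks, counted behind H1f4, also covers the promoter of H2bc6, and its pSHF partner was counted before H2bc6.

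Values varied among members known for roles outside S phase. H1f0, a linker histone of resting and differentiating cells, had no peak over its promoter window and one inside the gene with 6.61 in pSHF and 4.71 in HT. Behind its end, nearest to Gcat, the order was turned, with 5.81 in pSHF and 9.17 in HT. H1f10, another replication-independent linker histone, had 4.40 and 3.86 at its promoter with pileups of 16 and 10. The oocyte gene H1f8 had no peak within 1 kb, and the testis gene H1f6 likewise, although H1f6 lies inside the second cluster between open genes.

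**Figure D2:**
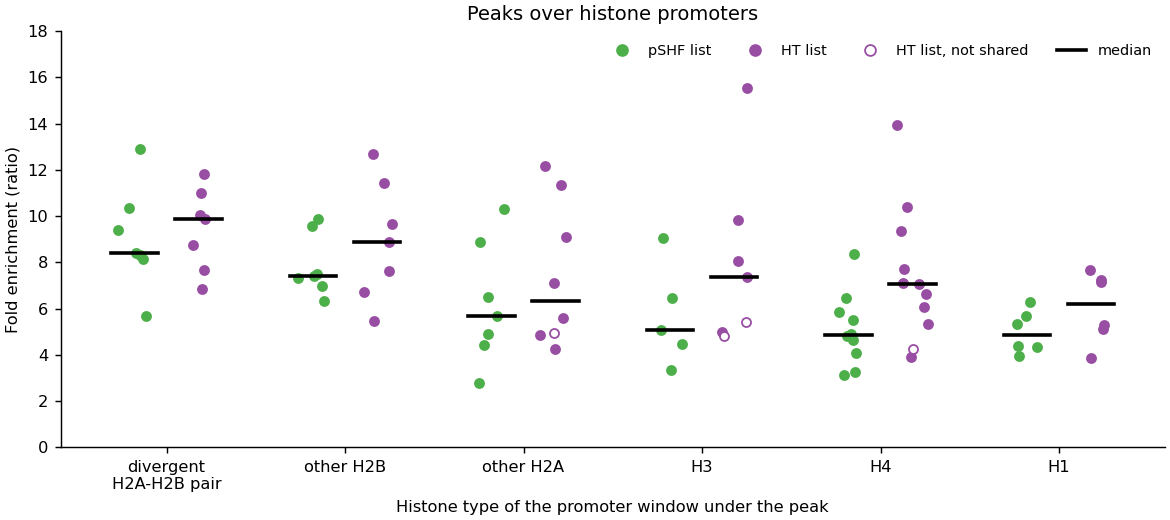
Fold enrichment (ratio) of each peak over a histone promoter window, by histone type, in the pSHF list (green) and the HT list (purple). Each point is a peak, open points are peaks not shared, and bars are medians. The median of the divergent pairs was 8.40 in pSHF and 9.89 in HT, and that of H4 promoters was 4.86 and 7.06.

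**Figure D3:**
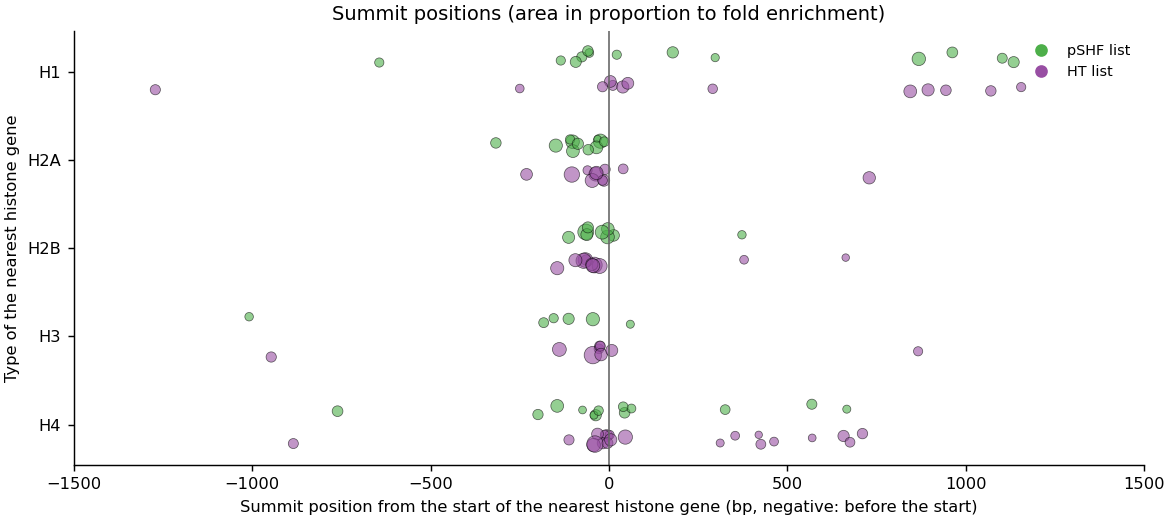
Summit position from the start of the nearest histone gene (bp) by type and list, for summits within 1.5 kb of the start, with the area of a point in proportion to fold enrichment. Most summits lie close to the start, before it or inside the gene. Peaks beyond the gene end are seen in both lists at H1f2, H1f3, H1f5, H4c8 and H4c11.

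The 5 genes without promoter letters were judged by their nearest peaks. H3c7 had 6.74 in pSHF and 9.36 in HT, H3c1 had 4.92 and 5.13, and H4c14 had 5.83 and 8.22. H2bc4 had 3.13 and 4.57 at a peak inside the gene and lies beside the stronger H2ac6 promoter peak. H2bc21 lies beside the peak of H2ac20. Each of the 5 thus had a peak within 1 kb in both lists.

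Summits lay before the start of the nearest histone gene in 39 of 64 pSHF and 39 of 79 HT peaks. They lay inside the gene in 13 and 17 peaks and after its end in 7 and 17, and the strand of the nearest gene was not in the promoter table for the remaining 5 and 6. Of the 17 HT peaks after a gene end 7 belonged to H4 genes, and of the 7 pSHF peaks 2 did. The HT peak over the H2bc6 promoter is among the 17 because its summit lay nearer to H1f4.

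The HT-restricted peaks were mostly weak. Their median fold enrichment was 4.36 (range 2.84 to 7.85) and 17 of 19 lay below the 50th percentile of the HT list by fold enrichment. H4 genes were the nearest members of 10 of the 19, and of 25 of all 79 HT histone peaks. A pSHF summit near a histone gene lay within 1 kb of 8 of them. The strongest was a peak 730 bp after the start of H2ac19 (chr3:96239555-96239745) with 7.85, and a second one covered the H2ac19 promoter with 4.94. The next were a peak behind H4c17 with 6.58, the H3c4 promoter with 5.43 and a peak before H1f8 with 5.30. A peak behind H4c18 had 4.93, the H3c11 promoter had 4.83, and a peak near H4c14 had 4.67. The list of 10 closed with a peak inside the long span of H2bc6 with 4.39 and one behind H3c15 with 4.36.

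The 2 H3 promoters with a peak in the HT list alone, H3c4 and H3c11, had HT pileups above the median of 29 at histone peaks. At H3c4 (chr13:23575647-23575817) the HT pileup was 36 (25.2 to 49.8). At the local background of the nearest pSHF peak, 1414 bp away, a pileup of 14 would have reached the lowest p-value of the pSHF list. At H3c11 (chr13:21783342-21783501) the HT pileup was 35 (24.4 to 48.7), and the same reckoning gave 11 for pSHF. It rests on the H1f5 promoter peak, 2745 bp away. In HT the local background was 6.45 at H3c11 and 4.46 at the H1f5 promoter, so 11 may be too low. H4c12, with a peak at 4.24 and a pileup of 23 (14.6 to 34.5) in HT, was the other single-copy or nearly single-copy promoter with an HT peak alone. The pSHF pileup at these places is not in the lists, so no ratio can be given.

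Only 2 pSHF histone peaks had no partner in HT. One lay within 5 kb of the oocyte gene H1f8, with a fold enrichment of 4.37 and a pileup of 9 (4.12 to 17.1). The other lay 2786 bp before H4c3 (chr13:23701183-23701442) with 3.90 and 12 (6.20 to 21.0), nearest to Hfe. Neither covered a histone promoter.

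At shared peaks the fold enrichment leaned towards the atria no more than elsewhere in the genome. Over the 62 pSHF histone peaks with a partner, the median log2 of the pSHF-to-HT ratio of fold enrichment was −0.28 (quartiles −0.56 and 0.01), beside −0.32 over all 28886 shared pSHF peaks. HT was higher in 46 of 62 (74.2%, background 78.1), and over promoters alone in 34 of 42 (81.0%, against 85.2 at promoters of other coding genes). It was at least 1.5 times higher in HT at 15 (24.2%, background 26.8) and in pSHF at 0 (background 2.07).

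The coverage itself differed more. For the summit pileup the median log2 ratio was −0.53 at histone peaks and −0.37 over all shared peaks, with HT higher at 54 of 62 (87.1%, background 71.4). For the local background it was −0.25 against 0.00, with HT higher at 50 of 62 (80.6%, background 49.5). Both terms of the ratio were thus larger in HT at most histone peaks, and they partly cancel in the fold enrichment. Over promoters of other coding genes HT was higher in pileup at 82.6 percent and in local background at 64.4 percent of pairs, with medians of −0.46 and −0.11. Over histone promoters it was higher at 40 of 42 and 36 of 42 pairs, with medians of −0.55 and −0.29. Among other peaks whose pSHF background was also at least 2 times the genome level, HT was higher in fold enrichment at 83, in pileup at 78.1 and in local background at 58.7 percent. The genome-wide background was 0.86 reads per position in pSHF and 0.82 in HT. In dissected tissue, a change in the share of cells of a type and a change of signal within each cell cannot be told apart.

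In the second cluster of chromosome 13 the pileup was higher in HT at 31 of 31 shared peaks (median log2 ratio −0.63) and the local background at 29 of 31 (−0.33). In the first cluster these counts were 12 of 14 (−0.38) and 13 of 14 (−0.33), and on chromosome 3 they were 6 of 6 (−0.45) and 5 of 6 (−0.17). Outside the clusters the 11 shared peaks lay at 5 genes, H2bu2, H2aw, H1f0, H1f10 and H4f16, and 2 pSHF peaks at H1f10 overlapped the same HT peak. The pileup was higher in HT at 5 of the 11 (median 0.36) and the local background at 3 (0.26). With each HT peak counted once, a setting chosen after seeing the data, the pileup was higher in HT at 5 of 10 and its median ratio changed sign to −0.026, while the local background was higher in HT at 3 of 10 (0.20). Neighbouring peaks share their local background, so the peaks of a cluster are not independent of each other.

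**Figure D4:**
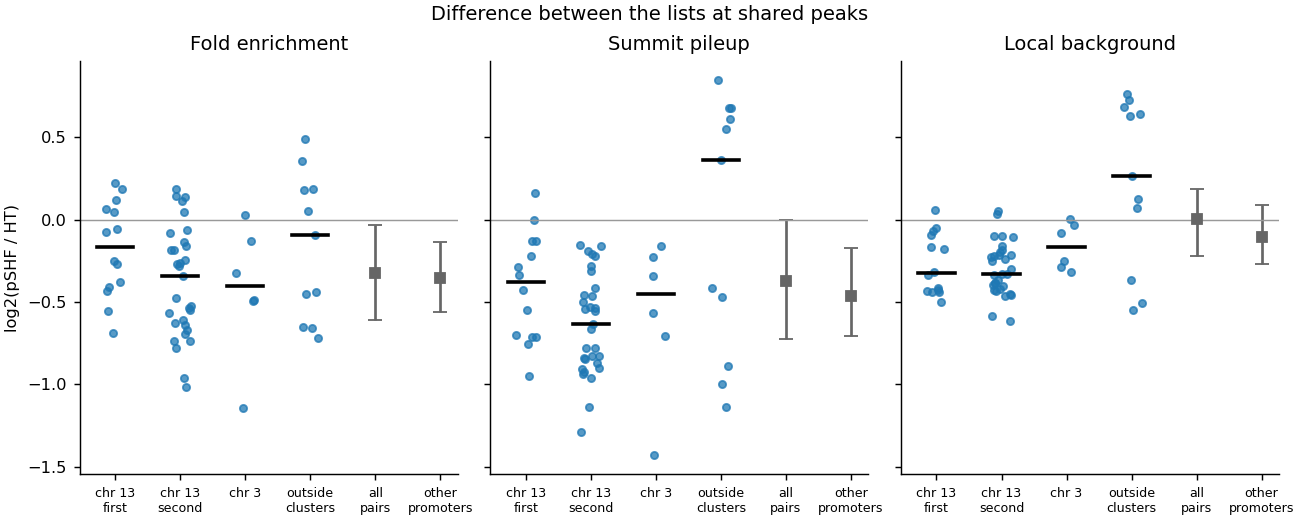
The log2 ratio of pSHF to HT at shared peaks for fold enrichment, summit pileup and local background. Points are histone peaks by cluster with their median as a bar, and grey squares with whiskers are the median and quartiles over all shared peaks and over promoter peaks of other coding genes. Values below 0 are higher in HT. In the second cluster of chromosome 13 all 31 pileup ratios are below 0.

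Histone types leaned to different degrees. The counts below stand beside 85.2 percent of promoter pairs of other coding genes with the higher fold enrichment in HT. At H3 promoters the median log2 ratio of fold enrichment was −0.67 (5 of 5 higher in HT) and at H4 promoters −0.67 (9 of 10). It was −0.32 at single H2A promoters (7 of 7), −0.31 at H1 promoters (5 of 6) and −0.24 at single H2B promoters (4 of 7). The single H2A promoters include H2ac6 and H2ac20, whose possible H2B partners had no promoter entry. Divergent pairs were nearly even at −0.06 (4 of 7). Their local background was higher in HT at 7 of 7, beside 64.4 percent at promoters of other coding genes. The lowest ratios were those of H3c13 (−1.14), H4c4 (−1.01) and H4c2 (−0.96). The highest belonged to the peak inside H1f0 (0.49), the H2bu2 promoter (0.36) and the peak behind H1f5 (0.22). With 5 to 10 promoters a type and no samples behind them, the order of the types is a description of these lists.

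**Figure D5:**
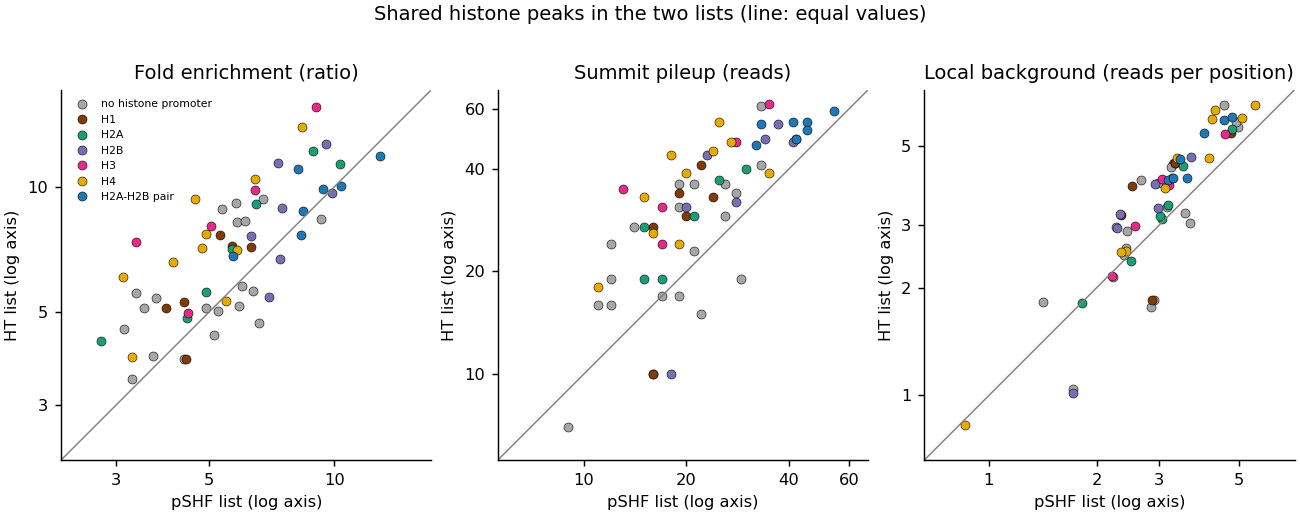
Values of the 62 shared histone peaks in the pSHF list (horizontal, log axis) and the HT list (vertical, log axis) for fold enrichment (ratio), summit pileup (reads) and local background (reads per position), coloured by promoter type. The line marks equal values. HT is above the line at 46 peaks for fold enrichment, 54 for pileup and 50 for local background.

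Several histone genes are near-perfect copies of each other, and there the lists are patchy. In 10 of 66 promoters at least 50% of the 50-base windows recurred in another histone promoter. Of these 10, 2 had a promoter peak in both lists (H4c18 and H2ac18), 1 in HT only (H2ac19) and 7 in neither. Of the 54 promoters with no recurring window, 45 had a peak in both lists, 2 in HT only and 7 in neither. The latter 7 were H3c10, H1f0 and the testis and oocyte genes H2bc1, H2ac1, H1f6, H1f7 and H1f8. At H1f0 a peak lay just past the window, with its summit 179 bp after the start in pSHF and 291 bp in HT.

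The copies H4c17 and H4c18 show the pattern most plainly. Their 300-base promoter windows share an unbroken run of 285 bases, in which the H4c18 stretch printed above largely lies. H4c18 had a promoter peak with 6.46 in pSHF and 10.4 in HT, whereas H4c17 had none in either list. Both had an HT-restricted peak behind the gene, 658 bp after the start of H4c17 and 676 bp after that of H4c18. The H2bc23 and H4bc24 windows are identical over all 300 bases, those of H3c14 and H3c15 share a run of 231 bases and those of H2ac18 and H2ac19 one of 219. The sources used here do not give how reads that match more than one place were treated, and the part of such reads in these gaps was not tested.

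The genes that run and finish histone transcription had open sites nearby in both tissues. All 19 listed had a peak within 5 kb in both lists. Of the 17 with a promoter peak in both, 16 had the higher fold enrichment in HT, beside 85.2 percent of promoter pairs of other coding genes, with medians of 8.74 in pSHF and 12.2 in HT over promoter peaks. Npat, which codes for the cluster coactivator, had 9.85 in pSHF and 11.4 in HT. Casp8ap2, which codes for the histone locus body protein FLASH, had 13.4 and 15.9. Slbp, which codes for the stem-loop binding protein, had 8.14 and 9.88. Hinfp, which codes for the H4 activator, had no peak over its listed promoter window and 13.4 and 16.6 at its strongest peak within 5 kb. Cpsf2, a subunit of the cleavage complex, was the exception with 9.77 and 8.86.

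At these regulators 6 of 36 pSHF peaks and 9 of 39 HT peaks were restricted, beside 34.4 and 45.5 percent of all peaks in the lists. Hinfp had 2 in pSHF and 1 in HT, and Ccne1, the cyclin E gene that drives entry into S phase, also had 2 and 1. Pou2f1, which codes for the octamer-binding OCT1, had 3 in HT. Among the NF-Y genes Nfya had 1 in pSHF, Nfyb 1 in HT and Nfyc 1 in each. Slbp and Sympk, a scaffold of the cleavage complex, had 1 each in HT. The 16 replacement histone and histone chaperone genes all had peaks in both lists, with promoter medians of 8.08 in pSHF and 11.1 in HT, and 14 of 15 with a promoter peak in both were higher in HT. Among proliferation genes 7 of 7 were higher in HT, with medians of 9.50 and 11.8. Both counts stand beside the same 85.2 percent for other coding genes.

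The lists were checked at defining genes of each tissue. In the lists as a whole 34.4 percent of pSHF peaks and 45.5 percent of HT peaks were restricted. Of 31 HT peaks near 7 cardiomyocyte genes 26 were restricted to HT, and Nppa, Ttn and Nkx2-5 had no pSHF peak. Of 18 pSHF peaks near 6 pSHF genes 9 were restricted to pSHF, with Hoxb1 lacking an HT peak. The pSHF genes did not all lean one way. Osr1 had no restricted peak in either list and a strongest peak of 5.61 in pSHF and 9.23 in HT, Isl1 had 1 restricted pSHF peak and 7.93 and 10.6, and Foxf1 had 3 restricted pSHF peaks and 1 restricted HT peak. Genes of blood and vessel cells also had many HT-restricted peaks. Of 19 HT peaks near 6 erythroid genes 13 were restricted, against 0 of 6 in pSHF, and Hbb-y, Hbb-bh1 and Gata1 had no pSHF peak. Of 18 HT peaks near 5 endothelial genes 13 were restricted, against 2 of 8 in pSHF, and Cdh5 and Tie1 had none in pSHF. Near 5 foregut endoderm genes 4 of 8 pSHF peaks and 3 of 7 HT peaks were restricted, and Shh had no peak in either list. The part of these cell types in the coverage of the histone clusters was not tested.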

How the data were processed

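ATAC-seq of pSHF and atria (HT) had 3 samples per tissue and 1 deposited peak list per tissue. MACS2 2.1.1, Bowtie2 2.3.2, Picard and SAMtools 1.5 were used with mm10, per the submitters' processing notes. The sources used here do not give their parameters or whether samples were pooled before calling. Each line of a deposited list is a summit with a score, a fold enrichment (ratio) and a −log10 p, all from the authors' peak caller. Read totals were not in the lists.

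Lines with equal start and end were merged, keeping the summit of highest fold. Pileup and local background were recovered from the deposited fold enrichment, read as (pileup + 1)/(background + 1), and the −log10 p. At 100% of peaks a whole pileup gave that p to within 0.01 log10 units. A background level is thus the caller's own, from reads times their extended length. The genes and promoter letters came from RefSeq tables of GRCm38.p6, and 1 bp of overlap defined shared peaks and promoter peaks. Python 3.11.15, pandas 2.3.3, numpy 2.4.6 and scipy 1.17.1 were used, and the recovery of pileups and the merging of lines were tested on simulated data.

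Members, gene lists and motifs were chosen with earlier results of these data known. Named were, per cluster, genes with no peak or a peak in 1 list, per type the strongest, the 5 strongest peaks of each list, all pSHF-restricted and the 10 strongest HT-restricted peaks, the 3 highest and 3 lowest ratios, and Npat, Slbp, Casp8ap2, Hinfp and regulators with restricted peaks. Further members were named to account for each type, after their values were seen. The comparison with promoters of other coding genes and the search for repeated windows were also added then. Lists were compared as deposited, without scaling for depth.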

Additional observations from a re-analysis of the deposited data

How the results depend on the processing

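No paired analysis was possible because the peak lists hold no value per sample, and for the same reason no sample could be left out in turn. Of the recomputed values 162 stayed within 1.5 times of the count, or within the spread, reported above, 17 moved and 1 changed sign. With summits within 1 kb, 0 pSHF peaks were restricted, 10 genes had a peak in neither list and 7 H3 genes had a pSHF peak. With 10 kb, 4 pSHF peaks were restricted. With peaks of at least the list's median fold enrichment, pSHF had 36 shared and 7 restricted histone peaks and 20 peaks in the second cluster of chromosome 13. HT then had 44 histone peaks, 36 shared and 8 restricted, with 6 on chromosome 3, 9 in the first and 23 in the second cluster of chromosome 13, and 3 genes had a peak in the pSHF list only. With 50% reciprocal overlap 8 pSHF peaks were restricted, and within the clusters alone 1. The pileup ratio gave −0.53 in place of −0.28. Fewer peaks enter under the stricter limits, and the cause of the other moves was not tested. An alternative without the 4 genes that match by older name only was chosen after seeing the data and moved none of the 27 values. Counting each HT partner once, also chosen after seeing the data, turned the median log2 pileup ratio outside the clusters from 0.36 to −0.026, because 2 pSHF peaks at H1f10 share 1 HT peak. The small pSHF-restricted count is the value that the settings changed most often, and with 1 list per tissue no statement above is replicated.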
